A study of Mus musculus with 10 samples.

Results

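The interleukin 1 (IL-1) family and the inflammasome were examined in spleens of mice immunized to develop proteoglycan-induced arthritis (PGIA). The genes were chosen by name for their function, with no threshold on a measured value: the ligands Il1a, Il1b and Il18, the receptor antagonist Il1rn, the receptors Il1r1 and Il1r2, and the inflammasome genes Nlrp3, Pycard and Casp1. These are 9 of the 18193 genes that the arrays name with 1 symbol, and they are read by 14 of 45037 probe sets, the short groups of probes that each report 1 signal. All 10 mice were female BALB/c given 3 intraperitoneal injections of cartilage proteoglycan (PG, 100 µg protein) with 2 mg of the adjuvant DDA on days 0, 21 and 42, so that non-arthritic mice had been immunized too and no unimmunized mouse is in the comparisons. By the labels, 2 old arthritic mice were 9 months old, 2 old non-arthritic mice were 7 and 5 months old, 2 young arthritic mice were 5 and 4 months old, and 4 young non-arthritic mice were 3, 3, 2 and 1 months old. The array labels do not say at which point of the experiment these ages were taken, and the study counts the age of its immunized groups at the first injection. Arthritic mice averaged 6.75 months (n = 4) and non-arthritic mice 3.5 months (n = 6), and in both age groups each arthritic mouse was older than each non-arthritic mouse. A piece of 50 mg of each spleen gave the RNA for 1 array.

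IL-1α and IL-1β, the products of Il1a and Il1b, bind the signalling receptor IL-1R1 and start the NF-κB response of inflammation, while the antagonist encoded by Il1rn occupies the same receptor without a signal and the decoy IL-1R2 takes up ligand without passing it on. IL-1β and IL-18 are made as inactive precursors. The sensor NLRP3, the adaptor ASC (encoded by Pycard) and the protease caspase-1 assemble into the inflammasome, in which caspase-1 cuts both precursors into their active forms, so a level of RNA does not show how much active cytokine was present. In the spleen, monocytes, macrophages, dendritic cells and neutrophils are known sources of these proteins.

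The B cell markers Cd79a and Cd79b had log2 signals of 12.82 and 12.85 in arthritic and 12.67 and 12.82 in non-arthritic spleens, far above the array medians of 6.88 to 6.96, as did the T cell marker Cd3e (11.04 and 11.02). Values of any 2 arrays correlated with r between 0.981 and 0.997 across all probe sets. The array of old arthritic replicate 2 stood apart on the component that held 40% of the variance, with a score of 52.6 against 19.6 for the next highest. Some results for the 9 genes are therefore also given without it. Differences of cell markers are given with it included. A whole piece of spleen holds many cell types, and fewer cells of a type cannot be told apart from less RNA per cell.

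The promoters of the genes whose values are discussed most are shown to identify them: the ligands Il1a and Il1b, which lie beside each other, and Il1rn, which has several annotated starts. All 9 genes matched RefSeq promoter windows of 300 bases on GRCm38.p6, from 250 bases before to 50 after a start. There were 13 windows, since Il1r1, Il1rn and Nlrp3 have more than 1. Capitals mark matches, on either strand, to the TATA box letters TATAAA or to GAGGAA, the core bound by the myeloid factor PU.1. No match was found in the Il1rn window of the first start.
Il1a promoter, chr2:129309923-129310222, minus strand: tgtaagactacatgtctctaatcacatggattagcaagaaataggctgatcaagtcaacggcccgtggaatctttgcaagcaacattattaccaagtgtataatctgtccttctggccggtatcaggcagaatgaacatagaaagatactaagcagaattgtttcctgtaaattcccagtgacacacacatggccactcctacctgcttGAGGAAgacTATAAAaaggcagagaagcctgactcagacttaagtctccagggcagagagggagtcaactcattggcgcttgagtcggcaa
Il1b promoter, chr2:129371090-129371389, minus strand: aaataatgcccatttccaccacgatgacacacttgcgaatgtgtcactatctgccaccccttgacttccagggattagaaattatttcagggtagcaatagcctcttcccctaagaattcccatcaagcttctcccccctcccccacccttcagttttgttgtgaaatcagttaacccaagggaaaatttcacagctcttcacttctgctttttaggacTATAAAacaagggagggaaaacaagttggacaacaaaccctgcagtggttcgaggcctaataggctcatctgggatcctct
Il1rn promoter, first start, chr2:24336610-24336909, plus strand: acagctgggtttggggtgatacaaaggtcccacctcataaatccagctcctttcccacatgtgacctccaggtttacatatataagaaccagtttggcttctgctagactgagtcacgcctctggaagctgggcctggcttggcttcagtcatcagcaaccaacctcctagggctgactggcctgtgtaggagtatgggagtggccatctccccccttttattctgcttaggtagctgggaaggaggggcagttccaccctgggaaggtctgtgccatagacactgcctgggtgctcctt
Il1rn promoter, last start, chr2:24345121-24345420, plus strand: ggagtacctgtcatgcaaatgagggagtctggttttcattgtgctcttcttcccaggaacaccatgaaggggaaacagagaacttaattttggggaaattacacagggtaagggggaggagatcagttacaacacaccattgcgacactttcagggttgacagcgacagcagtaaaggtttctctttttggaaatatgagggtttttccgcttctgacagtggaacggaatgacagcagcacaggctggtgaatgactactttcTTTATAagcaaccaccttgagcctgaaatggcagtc

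In Il1a the TATA box match began 32 bases before the start and the GAGGAA match 41 bases before it, and in Il1b the TATA box match began 31 bases before the start. The only match in the last of the Il1rn windows was a TATA box on the opposite strand, whose first letter lay at position 15 from the start. Over all 13 windows TATAAA occurred in 4, compared with 13.6% of 32851 promoter windows, and GAGGAA in 4, compared with 28.3%. The C/EBP letters TTGCNNAA occurred in 2 windows, 1 of Il1r1 and 1 of Pycard, compared with 10.8% of all windows. The NF-κB consensus occurred in 2, 1 of Il1r1 and 1 of Nlrp3, compared with 8.46%. A match is a description of letters, and binding was not measured. Which Il1rn transcript each probe set reads is not known from the files.

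The first question was whether spleens of arthritic mice differed in these genes from spleens of non-arthritic mice when age in months was held equal in the same limma fit. Age entered that fit as a straight line. Only the age of 5 months occurred both with and without arthritis, so equal age rests on that line. The antagonist Il1rn and the ligand Il1a had the highest positive values, the Il18 value was negative, and those of Il1b, Nlrp3, Pycard set 1 and Casp1 lay within 0.10 of 0 on the log2 scale. None of the 11 member probe sets kept by the filter on dim probe sets passed the adjusted threshold of 0.05 (limma, Benjamini-Hochberg over 23805 kept probe sets). In all, 538 probe sets passed, or 2.26%, of which 80.1% were higher in arthritic mice, and 66.7% of those that passed after quantile normalization was applied again. At an unadjusted p under 0.05 there were 3 of 11 member probe sets, all 3 higher (27.3%), against 22.9% of all kept probe sets in either direction. The median difference of the 11 was 0.09, the same as over all kept probe sets (0.09), and 7 of the 11 had values above 0, where 68.5% of all kept probe sets did. 

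**Figure D1:**
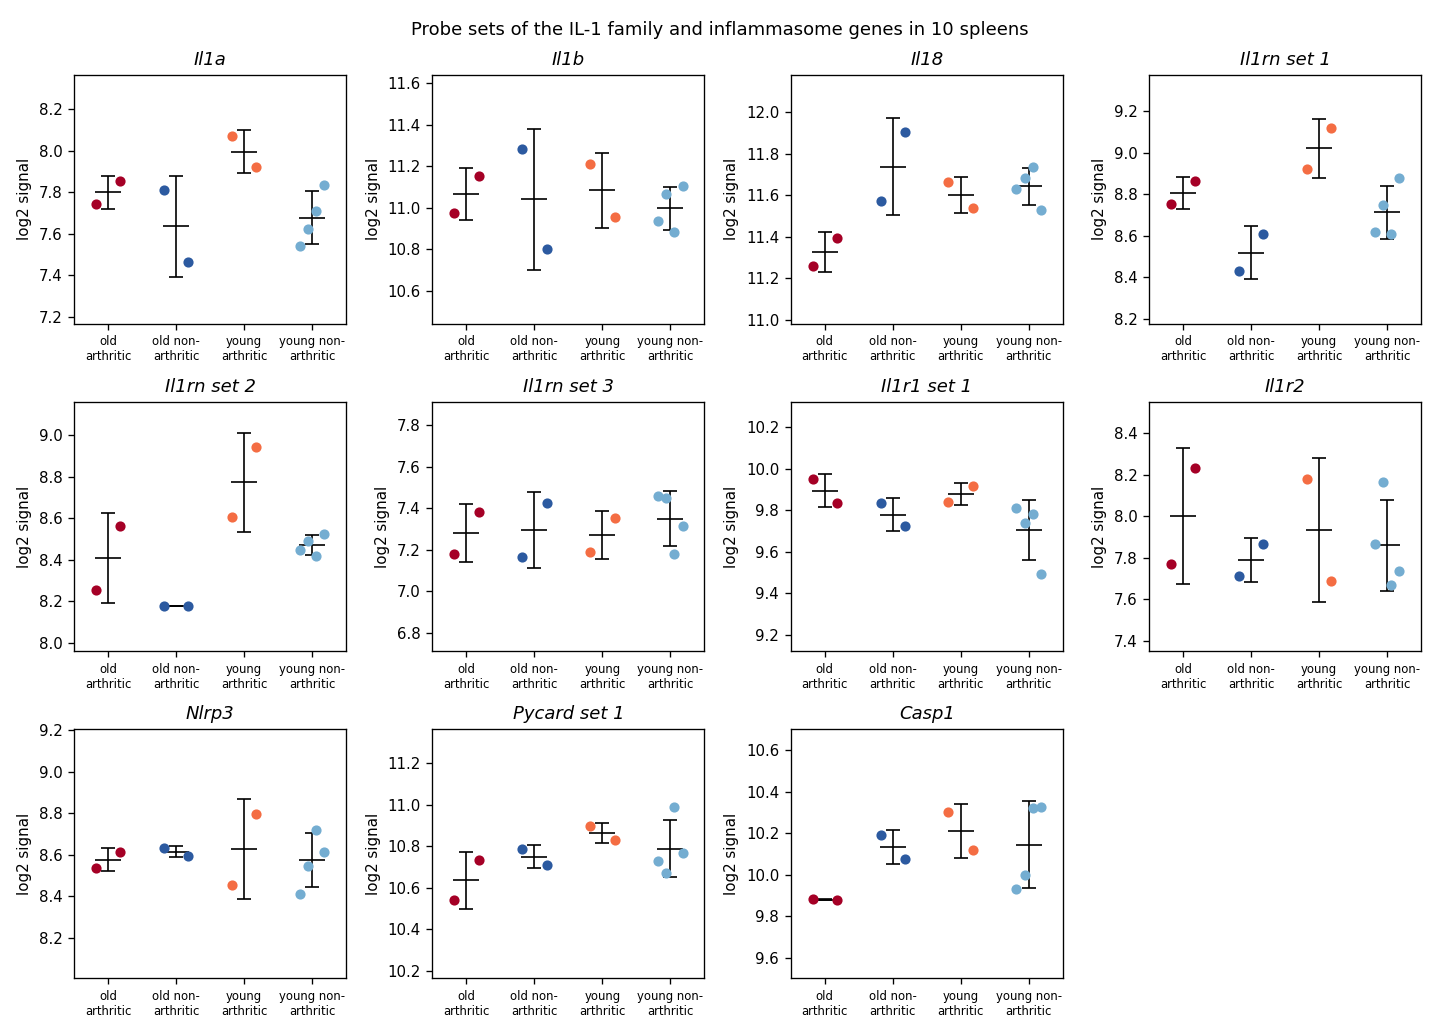
Log2 signal of the 11 kept probe sets of the 9 genes (vertical axes, each spanning the same number of log2 units) for old mice with and without arthritis and then young mice with and without it; a point is a mouse, the bar is the group mean and the whiskers are 1 SD. The bars of Il1rn sets 1 and 2 lie lowest in old non-arthritic and highest in young arthritic mice, and Il18 lies lowest in old arthritic mice (11.26 and 11.39).

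Among the ligands, Il1a was highest in young arthritic mice. Its probe set 1421473_at read 7.75 and 7.86 in old arthritic mice, 7.46 and 7.81 in old non-arthritic mice, 7.92 and 8.07 in young arthritic mice, and 7.84, 7.71, 7.62 and 7.54 in young non-arthritic mice. Both young arthritic mice lay above all other mice, whereas old arthritic and old non-arthritic mice overlapped. The mean was 7.90 ± 0.14 in arthritic and 7.66 ± 0.15 in non-arthritic mice (SD, n = 4 and 6). At equal age the difference was 0.32 (SE 0.11, 95% interval 0.08 to 0.57), or 1.25-fold, with an unadjusted p of 0.0151 and an adjusted p of 0.128 in limma, so it did not pass. With weights for the arrays it did (adjusted p = 0.0396), as did 4857 of all 23805 kept probe sets. Without old arthritic replicate 2 the difference was 0.32.

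Il1b, the ligand that caspase-1 activates, was bright and nearly level. Its probe set 1449399_a_at read 10.98 and 11.15 in old arthritic mice, 10.80 and 11.28 in old non-arthritic mice, 10.95 and 11.21 in young arthritic mice, and 11.10, 10.88, 11.07 and 10.94 in young non-arthritic mice. The old non-arthritic mice held both the lowest and the highest value of all 10, so all groups overlapped. The difference at equal age was 0.09 with a 95% interval of -0.19 to 0.38 (adjusted p = 0.683, limma).

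Il18, whose product drives interferon-γ from T and NK cells, ran the other way. Its probe set 1417932_at read 11.26 and 11.39 in old arthritic mice, 11.90 and 11.57 in old non-arthritic mice, 11.54 and 11.66 in young arthritic mice, and 11.53, 11.74, 11.68 and 11.63 in young non-arthritic mice. Both old arthritic mice lay below the other 8, and the young groups overlapped. The difference at equal age was -0.17 (SE 0.12, 95% interval -0.45 to 0.10, adjusted p = 0.418, limma), and without old non-arthritic replicate 1 it was 0.03, on the other side of 0. Among old mice alone it was -0.41 (SE 0.13, 95% interval -0.70 to -0.13, adjusted p = 0.152, limma). That is 0.751 times the old non-arthritic level, and in young mice the value was -0.04. The difference between these 2 effects was -0.37 (SE 0.17, 95% interval -0.75 to 0.01) with an unadjusted p of 0.0547 and an adjusted p of 1.00 in limma, so a difference between age groups was not established. Without old arthritic replicate 2 the value among old mice was -0.48. Without old non-arthritic replicate 1, the highest of all Il18 values, it was -0.25.

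The receptor antagonist Il1rn is read by 3 probe sets, numbered here by brightness, and their levels are not compared with each other. Set 1 (1423017_a_at) read 8.75 and 8.86 in old arthritic mice, 8.61 and 8.43 in old non-arthritic mice, 9.12 and 8.92 in young arthritic mice, and 8.88, 8.61, 8.75 and 8.62 in young non-arthritic mice. Set 2 (1451798_at) read 8.26 and 8.56 in old arthritic mice, 8.18 and 8.18 in old non-arthritic mice, 8.94 and 8.61 in young arthritic mice, and 8.53, 8.42, 8.49 and 8.45 in young non-arthritic mice. In both sets each arthritic mouse lay above each non-arthritic mouse of its own age group, and the highest young non-arthritic mice reached above the lower old arthritic mice. The 2 old non-arthritic mice had the same deposited value in set 2 to the last digit, as they did in 55 of 45037 probe sets (0.122%), so the spread of that group is 0 there and the fit takes its spread from all groups.

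At equal age, set 1 differed by 0.38 (SE 0.11, 95% interval 0.13 to 0.62), or 1.30-fold, with an unadjusted p of 0.00652 and an adjusted p of 0.0904 in limma. Set 2 differed by 0.43 (SE 0.12, 95% interval 0.17 to 0.70), or 1.35-fold, with an unadjusted p of 0.00447 and an adjusted p of 0.0799. Neither passed the threshold, and these were the lowest adjusted p-values among the 11 probe sets. Both passed with weights for the arrays (adjusted p = 0.0150 and 0.0127), as did 4857 of all 23805 kept probe sets. They also passed when all 45037 probe sets were tested (adjusted p = 0.0482 and 0.0380), where 12.2% of all did. With no age term the set 2 value was 0.22 (adjusted p = 0.257), and the group means were 8.59 ± 0.28 in arthritic and 8.37 ± 0.16 in non-arthritic mice (SD, n = 4 and 6). Without old arthritic replicate 2 the values at equal age were 0.37 for set 1 and 0.42 for set 2. Within age groups, with no age term, the values were smaller. For set 1 they were 0.29 in old and 0.31 in young mice, and for set 2 they were 0.23 and 0.30.

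Set 3 (1425663_at), the dimmest, read 7.18 and 7.38 in old arthritic mice, 7.43 and 7.17 in old non-arthritic mice, 7.35 and 7.19 in young arthritic mice, and 7.32, 7.18, 7.45 and 7.46 in young non-arthritic mice. All groups overlapped, and the difference at equal age was -0.04 (95% interval -0.28 to 0.19, adjusted p = 0.835, limma). The 3 probe sets of Il1rn thus did not give 1 answer, and whether this lies in the transcripts they read was not tested. Across the 10 arrays sets 1 and 2 had a Pearson r of 0.879 (permutation test with 100000 resamples, p = 0.00128, adjusted p = 0.0704 over 55 pairs of member probe sets) and a Spearman rho of 0.881 (permutation p = 0.0015, adjusted 0.0825). Without the 2 arrays farthest from the median of set 1, r was 0.679.

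**Figure D2:**
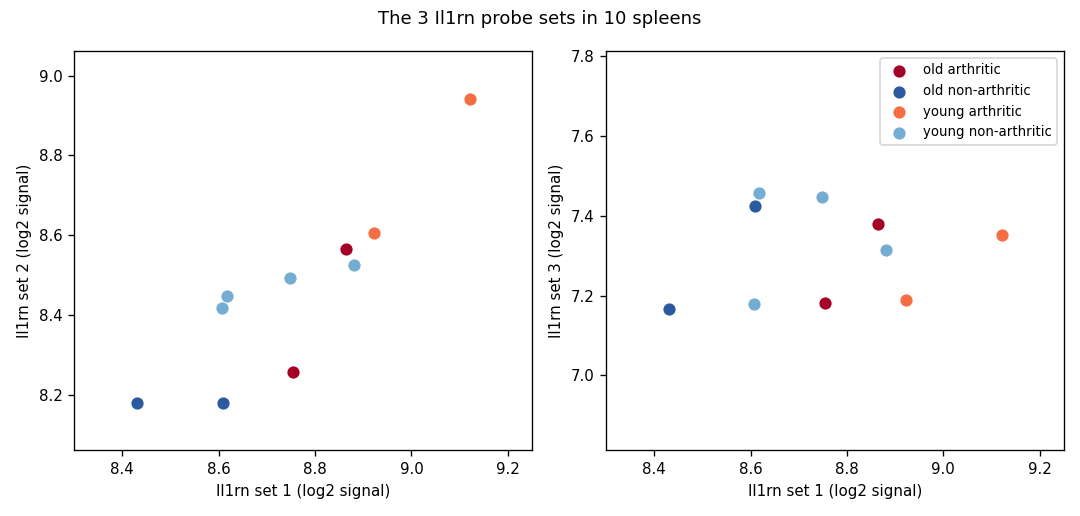
Log2 signal of Il1rn set 2 (left) and set 3 (right) against set 1 in the 10 mice, coloured by group. Sets 1 and 2 run together, with both old non-arthritic mice at 8.18 on the set 2 axis, while set 3 stays between 7.17 and 7.46 along the whole range of set 1.

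Of the receptors, Il1r1 set 1 (1448950_at), the signalling receptor, read 9.95 and 9.84 in old arthritic mice, 9.72 and 9.84 in old non-arthritic mice, 9.92 and 9.84 in young arthritic mice, and 9.49, 9.78, 9.74 and 9.81 in young non-arthritic mice. The lowest arthritic value was 9.838 and the highest non-arthritic value 9.837, so the groups did not overlap, but by a margin far smaller than the spread within either. It was the only 1 of the 11 probe sets without overlap between arthritic and non-arthritic mice, ages not adjusted, where 12.1% of all kept probe sets had none. The difference at equal age was 0.15 (SE 0.10, 95% interval -0.06 to 0.36, adjusted p = 0.378, limma).

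The decoy receptor Il1r2 (1419532_at) varied most within groups. It read 7.77 and 8.23 in old arthritic mice, 7.87 and 7.72 in old non-arthritic mice, 7.69 and 8.18 in young arthritic mice, and 7.74, 7.67, 8.17 and 7.87 in young non-arthritic mice. High and low mice occurred in each of the arthritic groups and among the young non-arthritic mice. The difference at equal age was 0.16 (SE 0.17, 95% interval -0.21 to 0.54, adjusted p = 0.588, limma), the widest interval among the 11.

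With age held equal, the inflammasome genes lay near the same level with and without arthritis. The sensor Nlrp3 (1425412_at) read 8.54 and 8.61 in old arthritic mice, 8.59 and 8.63 in old non-arthritic mice, 8.80 and 8.45 in young arthritic mice, and 8.61, 8.72, 8.54 and 8.41 in young non-arthritic mice. All groups overlapped, and the difference was -0.02 (95% interval -0.25 to 0.21, adjusted p = 0.923, limma). The adaptor gene Pycard, set 1 (1417346_at), read 10.54 and 10.73 in old arthritic mice, 10.71 and 10.79 in old non-arthritic mice, 10.83 and 10.90 in young arthritic mice, and 10.77, 10.99, 10.67 and 10.73 in young non-arthritic mice. Its difference was 0.05 (95% interval -0.17 to 0.28, adjusted p = 0.781).

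The protease gene Casp1 (1449265_at) read 9.88 and 9.88 in old arthritic mice, 10.08 and 10.19 in old non-arthritic mice, 10.12 and 10.30 in young arthritic mice, and 10.33, 10.32, 10.001 and 9.93 in young non-arthritic mice. Both old arthritic mice lay below all other mice, while the young non-arthritic mice fell into a higher and a lower pair, with the mice of 3 months high and those of 2 and 1 months low. At equal age the difference was -0.01 (95% interval -0.31 to 0.29, adjusted p = 0.976, limma), and among old mice it was -0.25 (SE 0.15, adjusted p = 0.380). Pycard set 1 and Casp1 had an r of 0.772 over the 10 arrays (permutation test with 100000 resamples, p = 0.00584, adjusted p = 0.161 over the 55 pairs), a rho of 0.709 (permutation p = 0.0262, adjusted 0.289), and an r of 0.656 without the 2 arrays farthest from the median of Pycard set 1. No pair of the 55 passed the adjusted threshold.

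The other 3 probe sets lay below the array median on all 10 arrays and were tested only in the fit of all 45037 probe sets, where 12.2% passed at equal age. Il1r1 set 2 (1459777_at) ranged over 3.45 to 3.85 and Pycard set 3 (1417347_at) over 4.25 to 4.77, with adjusted p-values of 0.739 and 0.426 at equal age. Pycard set 2 (1446926_at) read 4.71 and 4.72 in old arthritic mice, 4.89 and 5.06 in old non-arthritic mice, 4.77 and 4.61 in young arthritic mice, and 5.06, 5.05, 4.82 and 5.19 in young non-arthritic mice. Every arthritic mouse was below every non-arthritic mouse, with a difference at equal age of -0.28 (SE 0.10, adjusted p = 0.0889, limma). Its signal lay below the array median on every array, and for Pycard set 1, the brightest of the gene, the difference was 0.05.

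**Figure D3:**
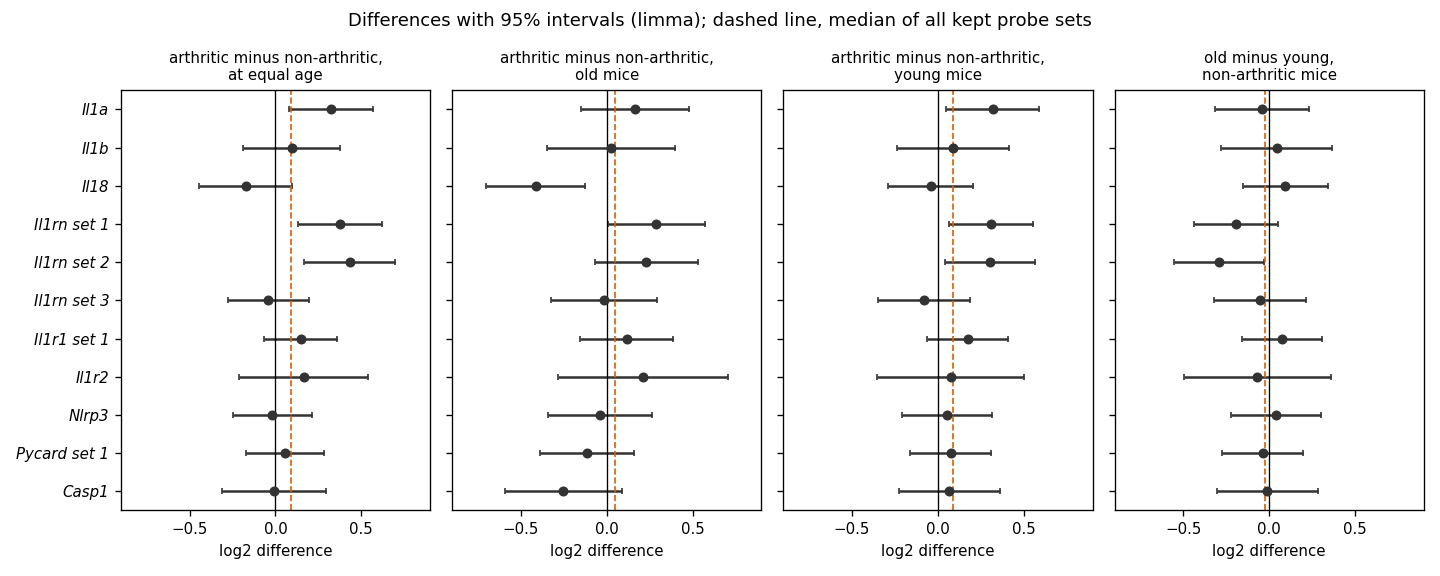
Log2 differences with 95% intervals from limma (horizontal axes) for the 11 kept probe sets in 4 comparisons: arthritic minus non-arthritic mice at equal age, in old mice and in young mice, and old minus young non-arthritic mice; the dashed line is the median of all 23805 kept probe sets. Il1rn sets 1 and 2 lie to the right in the 3 arthritis panels and to the left in the age panel, and Il18 lies to the left in old mice, where its value was -0.41.

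Arthritis was then compared within age groups, where it is not separated from age. The comparisons share mice, so their values are given side by side only. Among mice aged 4 months or more, the 4 arthritic mice were set against the 2 old non-arthritic mice. Il1rn set 1 differed by 0.40 (SE 0.11, adjusted p = 0.0997, limma) and set 2 by 0.41 (SE 0.12, adjusted p = 0.103), Il1a by 0.26 (adjusted p = 0.245), and Il18 by -0.27 (adjusted p = 0.197). None of the 11 passed, against 137 of all kept probe sets, or 0.576%, of which 85.4% were higher, and 74.3% of those called after quantile normalization was applied again. At an unadjusted p under 0.05 there were 3 of 11 (21.7% of all), and the 3 probe sets Il1rn sets 1 and 2 and Il1r1 set 1 had no overlap, all higher in arthritic mice (27.4% of all kept probe sets were). With old arthritic replicate 1 left out the Il1rn set 2 value was 0.49, and with replicate 2 left out 0.34. Either fit leaves 1 mouse in that group, so no call is read from it. Without old non-arthritic replicate 1 the Il1a value was 0.09 and the Il18 value -0.11. With old non-arthritic replicate 2 left out instead they were 0.44 and -0.44.

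In old mice, 2 against 2, none of the 11 passed (0.0714% of all kept probe sets did) and 2 had an unadjusted p under 0.05 (18.6% of all). These were Il18, given above, and Il1rn set 1 at 0.29 (SE 0.13, adjusted p = 0.260, limma). With 2 mice a side, groups without overlap are common: Il1rn sets 1 and 2 and Il1r1 set 1 were higher in both old arthritic mice and Il18 and Casp1 lower in both, 5 of 11, against 51.5% of all kept probe sets. The Il1rn set 2 value was 0.23 (SE 0.13, adjusted p = 0.369), and 0.08 without old arthritic replicate 2. The Il1a value was 0.16, and -0.01 without old non-arthritic replicate 1.

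In young mice, 2 arthritic against 4 non-arthritic, none of the 11 passed (0.311% of all) and 3 had an unadjusted p under 0.05 (18.2% of all). Il1a differed by 0.32 (SE 0.12, adjusted p = 0.226, limma), Il1rn set 1 by 0.31 (SE 0.11, adjusted p = 0.203) and Il1rn set 2 by 0.30 (SE 0.12, adjusted p = 0.227). These 3 and Il1r1 set 1 were higher in both young arthritic mice than in all 4 young non-arthritic mice, as 25.6% of all kept probe sets were. The difference between the effects in old and in young mice passed for none of the 11, nor for any of the 23805 probe sets (0%), of which 3.1% had an unadjusted p under 0.05 and none of the 11 did. After Il18 the next value was that of Casp1, -0.32 (SE 0.20, 95% interval -0.77 to 0.13, limma adjusted p = 1.00), while Il1rn sets 1 and 2 were at -0.02 and -0.07.

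Age was compared in mice without arthritis, old against young. None of the 11 member probe sets passed, nor did any of the 23805 (0%), and at an unadjusted p under 0.05 there was 1 of 11 (3.19% of all). It was Il1rn set 2, with 8.18 in both old non-arthritic mice and 8.42 to 8.53 in young non-arthritic mice, a difference of -0.29 (SE 0.12, 95% interval -0.55 to -0.03, adjusted p = 0.997, limma). It was also the only 1 without overlap, where 12% of all kept probe sets had none. The set 1 value was -0.19 (SE 0.11, adjusted p = 0.997), and the other 9 values lay between -0.07 (Il1r2) and 0.09 (Il18).

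The order of the 4 group means followed no single pattern among the genes. Il1a, Il1b, Il1rn sets 1 and 2, Nlrp3, Pycard set 1 and Casp1 were highest in young arthritic mice, Il1r1 set 1 and Il1r2 in old arthritic mice, Il18 in old non-arthritic mice and Il1rn set 3 in young non-arthritic mice. Between neighbours in that order most groups overlapped: the young arthritic mice stood clear of the next group for Il1a and for Il1rn sets 1 and 2, and the lowest group stood clear of its neighbour for Il18 and Casp1 (old arthritic) and Il1rn set 2 (old non-arthritic). For Il1r1 set 1 the gap lay in the middle, between young arthritic and old non-arthritic mice. From the highest to the lowest group mean the span ran from 0.05 for Nlrp3 to 0.59 for Il1rn set 2.

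The genes whose pattern was most like each member were sought among 11861 other named genes, by Pearson r over the 10 arrays (in parentheses, with 3 genes for each). Some of this number will run close to any pattern of 10 values, so these are descriptions. For the ligands they were Usp38 (0.95), Zbed4 (0.94) and Zcchc9 (0.94) for Il1a, Mto1 (0.87), Ctcf (0.87) and Pim1 (0.84) for Il1b, and Kcnd3 (0.94), Hoxb2 (0.94) and Fcna (0.93) for Il18. For the antagonist they were Zfand2a (0.98), Ppwd1 (0.94) and Sec24a (0.93) for set 1, Samd8 (0.94), Naglu (0.94) and Ccl9 (0.93) for set 2 and Mfsd4b4 (0.85), Nkd2 (0.82) and Plin2 (0.80) for set 3, with no gene in common. For the receptors they were Dennd3 (0.95), Rbck1 (0.95) and Col7a1 (0.95) for Il1r1 set 1 and Pik3r6 (0.88), Tmem216 (0.87) and Pram1 (0.84) for Il1r2. For the inflammasome they were Mef2c (0.95), Gtpbp4 (0.90) and Tox2 (0.88) for Nlrp3, Chsy1 (0.96), Psmg4 (0.95) and Sh3bp5 (0.95) for Pycard set 1 and Phtf2 (0.97), Fpgt (0.96) and Amn1 (0.95) for Casp1.

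The rest of the pathway was read through lists of genes named by role, at equal age unless stated, with 1 probe set, the brightest, for each gene. Of 7 other IL-1 family ligands and decoys, 5 were kept and none passed, with 2 at an unadjusted p under 0.05, both higher in arthritic mice (22.9% of all kept probe sets in either direction). Il1f9, which encodes the ligand IL-36γ, had 8.67 ± 0.24 in arthritic and 8.13 ± 0.14 in non-arthritic mice (SD, n = 4 and 6), a difference of 0.50 (SE 0.14, adjusted p = 0.0821). Il18bp, which encodes the soluble protein that binds and blocks IL-18, had 9.23 ± 0.08 in arthritic and 8.96 ± 0.14 in non-arthritic mice (SD, n = 4 and 6), a difference of 0.38 (SE 0.09, adjusted p = 0.0549). It passed when all 45037 probe sets were tested, with weights for the arrays and without young non-arthritic replicate 1 (adjusted p = 0.0231, 0.00588 and 0.0343). Of all probe sets, 12.2%, 4857 of 23805 and 559 of 23730 passed under these settings, in that order. Of 8 other receptors, 5 were kept and none passed, with 1 at an unadjusted p under 0.05 (22.9% of all). All 5 values were above 0, where 68.5% of all kept probe sets were. Il1rap, the accessory chain that IL-1R1 needs to signal, differed by 0.28 (SE 0.09, adjusted p = 0.0997), and the IL-36 receptor gene Il1rl2 by 0.24 (SE 0.11, adjusted p = 0.219). Below the filter, Il1rapl2, a relative of Il1rap, passed in the fit of all probe sets at 0.48 (SE 0.10, adjusted p = 0.0140) from signals under 5.1, below the array medians. In that fit 12.2% of all probe sets passed.

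Of 16 genes that carry the signal from the receptor, 13 were kept, none passed and 3 had an unadjusted p under 0.05 (22.9% of all kept probe sets), with a median of 0.13 against 0.09 over all kept probe sets. The receptor kinase gene Irak1 differed by 0.38 (SE 0.11, adjusted p = 0.0880) and Tab2, whose product activates the kinase TAK1, by 0.24 (SE 0.08, adjusted p = 0.131). Of 19 inflammasome sensors and partners, 11 were kept, none passed and 2 had an unadjusted p under 0.05 (22.9% of all), with a median of 0.04. They were Nlrx1, a mitochondrial member of the NLR family, at 0.50 (SE 0.14, adjusted p = 0.0805), and Naip2, a sensor of bacterial secretion systems, at 0.41 (SE 0.12, adjusted p = 0.0928). Neither is an NLRP3 inflammasome subunit. Irak1, Nlrx1 and Naip2 passed when all 45037 probe sets were tested (adjusted p = 0.0464, 0.0371 and 0.0495), where 12.2% of all did. Of 9 genes that IL-1 is known to induce, 6 were kept. The values of Saa3 (0.39), Nfkbiz (0.08), Tnfaip3 (0.03) and Cxcl1 (-0.20) had no unadjusted p under 0.05. Of the 6, 1 passed, compared with 2.26% of all kept probe sets.

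This was Ccl2, the monocyte chemokine, which read 6.98 and 6.64 in old arthritic mice, 5.88 and 6.48 in old non-arthritic mice, 7.15 and 7.23 in young arthritic mice, and 6.67, 6.60, 6.55 and 6.77 in young non-arthritic mice. Its group means were 7.00 ± 0.26 in arthritic and 6.49 ± 0.32 in non-arthritic mice (SD, n = 4 and 6). It lay above the array median only in arthritic mice, and below it in every non-arthritic mouse. It thus passed the filter through the group where it was high, so the filter and the call rest on the same mice. At equal age it was higher in arthritic mice by 0.86 (SE 0.12, adjusted p = 0.0178). The call was lost with no age term, with a difference of 0.50 (adjusted p = 0.0759), without old non-arthritic replicate 1, with 0.68 (adjusted p = 0.125), and without old non-arthritic replicate 2 or either young arthritic mouse (adjusted p = 0.0511, 0.0671 and 0.125). Lcn2, which encodes the iron-binding protein lipocalin 2 and is also a neutrophil granule gene, read 12.74 and 13.34 in old arthritic mice, 11.09 and 11.39 in old non-arthritic mice, 12.80 and 13.66 in young arthritic mice, and 12.74, 12.55, 12.86 and 11.81 in young non-arthritic mice. Both old non-arthritic mice were the lowest of the 10. It differed by 1.57 (SE 0.39, adjusted p = 0.0625) at equal age and rose with arthritis in the comparison from 4 months of age by 1.90 (SE 0.33, adjusted p = 0.0469). That call was lost when any 1 array but old arthritic replicate 1 was left out (differences from 1.68 to 2.11, adjusted p up to 0.367). Ptgs2, the cyclooxygenase gene, passed at equal age in the fit of all probe sets at 0.32 (SE 0.09, adjusted p = 0.0489) from signals under 4.8, below the array medians. In that fit 12.2% of all probe sets passed.

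**Figure D4:**
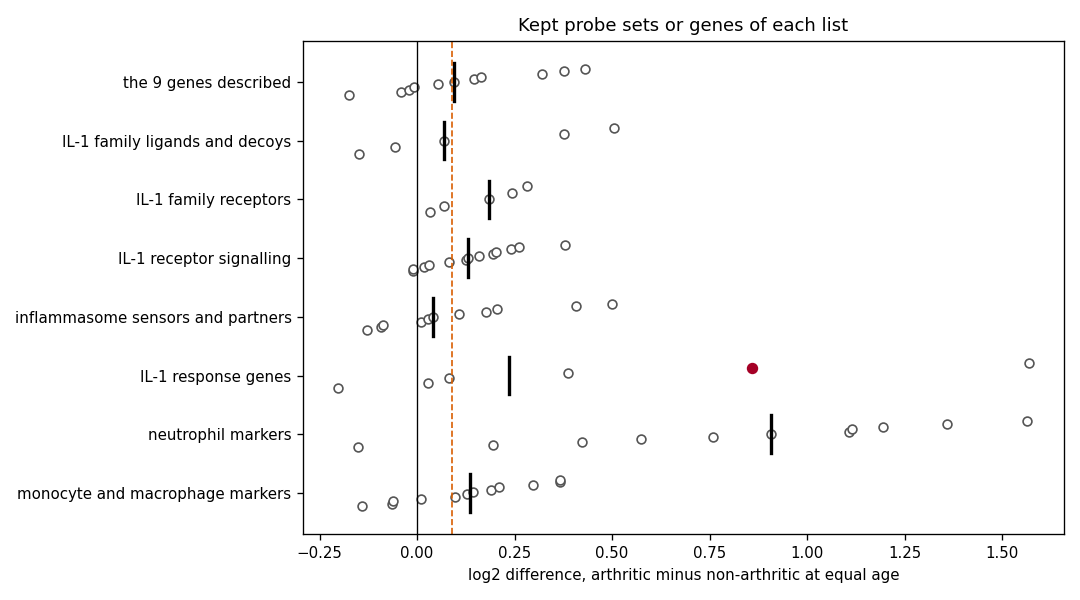
Log2 difference, arthritic minus non-arthritic with age held equal (horizontal axis), for each kept probe set of the 9 genes and each kept gene of 7 lists; black bars are list medians, the dashed line is the median of all kept probe sets, and the filled point is the only 1 that passed, Ccl2. Most neutrophil markers lie to the right, with a median of 0.91, and Cxcr2 lies left of 0.

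Markers of cells that make IL-1 family proteins were read in the same way, and their relation to the 9 genes was not tested. Of 11 kept neutrophil markers, none passed at equal age and 9 had an unadjusted p under 0.05, all higher in arthritic mice (22.9% of all kept probe sets in either direction), with a median of 0.91. The exceptions were the receptor genes Csf3r at 0.20 (SE 0.13, adjusted p = 0.398, limma) and Cxcr2, which was negative at -0.15 (SE 0.16, adjusted p = 0.591). Mmp8, a neutrophil collagenase, differed by 1.56 (SE 0.39, adjusted p = 0.0622) and Ltf, lactoferrin, by 1.36 (SE 0.37, adjusted p = 0.0787). The log2 of the summed unlogged signals of the 11, in which the brightest genes weigh most, was 16.83 to 17.39 in the 4 arthritic mice and 16.04 to 17.09 in the 6 non-arthritic mice. It was lowest in the 2 old non-arthritic mice (16.04 and 16.20), which also had the 2 lowest values of Il1rn set 2. In old against young non-arthritic mice, 8 of the 11 had an unadjusted p under 0.05, all lower in old mice (3.19% of all kept probe sets in either direction), with a median of -0.75 and none past the adjusted threshold. For arthritis in young mice, 1 of the 11 had an unadjusted p under 0.05 (18.2% of all kept probe sets), with a median of 0.38.

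Of 12 kept monocyte and macrophage markers, none passed at equal age and 5 had an unadjusted p under 0.05, all higher (22.9% of all), with a median of 0.13. Cd68 differed by 0.30 (SE 0.09, adjusted p = 0.104) and Lyz2 by 0.21 (SE 0.07, adjusted p = 0.117). The log2 of the summed signals of the 12 was 16.27 to 16.53 in arthritic and 16.30 to 16.36 in non-arthritic mice, and it was lowest in the 2 old arthritic mice (16.27 and 16.29), which also had the lowest Il18 and Casp1. In old mice 3 of the 12 (Adgre1, Csf1r and Marco) had an unadjusted p under 0.05, all lower in arthritic mice (18.6% of all kept probe sets in either direction). All 4 platelet and megakaryocyte markers were higher at equal age with an unadjusted p under 0.05 (22.9% of all), and none passed. Itga2b differed by 0.67 (SE 0.15, adjusted p = 0.0511) and Ppbp by 0.43 (SE 0.10, adjusted p = 0.0511). Mmp8, Ltf, Itga2b and Ppbp passed when all 45037 probe sets were tested and with weights for the arrays, and Cd68 and Lyz2 with the weights. Of all probe sets, 12.2% passed with all tested, and 4857 of 23805 with the weights.

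Among old mice, where the Il18 and Casp1 values were negative, those of several markers of other cells were negative too, and those of others were positive. Values were above 0 for 10 of 11 neutrophil, 4 of 4 platelet and megakaryocyte, 3 of 3 plasma cell, 3 of 3 erythroid and 2 of 3 B cell markers. Of all kept probe sets, 58.6% had values above 0 in that comparison. Gzma, a granzyme of NK and cytotoxic T cells, read 11.11 and 10.79 in old arthritic mice, 11.89 and 11.90 in old non-arthritic mice, 11.70 and 11.69 in young arthritic mice, and 12.38, 12.33, 11.37 and 11.61 in young non-arthritic mice, and in old mice it differed by -0.94 (SE 0.31, adjusted p = 0.168). Ncr1, a receptor of NK cells, differed by -0.88 (SE 0.32, adjusted p = 0.197), and the log2 of the summed signals of both was 11.09 and 11.48 in the old arthritic mice and 11.68 or more in the other 8. All 6 kept T cell markers had values below 0 in old mice, with a median of -0.25, and none had an unadjusted p under 0.05. The mesothelium markers Msln and Upk3b differed by -0.79 (SE 0.30, adjusted p = 0.217) and -0.81 (SE 0.32, adjusted p = 0.228). In old arthritic replicates 1 and 2, Msln read 6.60 and 5.65, Upk3b 8.56 and 7.87, and Ncr1 9.34 and 8.67. Replicate 2, the array that stood apart, was thus the lower for each, as for Gzma. Old non-arthritic mice read 6.63 and 7.21 for Msln, 8.86 and 9.18 for Upk3b, and 9.82 and 9.95 for Ncr1. Gzma, Ncr1, Msln and Upk3b each had an unadjusted p under 0.05 (18.6% of all kept probe sets), and none passed. Msln, Adgre1, Csf1r, Marco, Csf3r, Cxcr2, Saa3, Nfkbiz, Tnfaip3 and Cxcl1 were named after their values were seen. The part of any of these cells in the values of the 9 genes was not tested.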

How the data were processed

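RNA from the spleens of 10 mice was hybridized to Affymetrix arrays, 1 for each mouse. The authors deposited log2 signals of probe sets. The submitters' processing notes name RMA, which corrects background, normalizes the arrays to each other and summarizes the probes of a set. No version of it is given in the sources used, and the paper's text states no method for the arrays. The table holds 45101 rows, of which 64 control rows were left out. Gene symbols came from the platform annotation: 34945 probe sets carry 1, 932 several and 9160 none.

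Probe sets brighter than the array's median on 2 or more arrays were kept (23805 probe sets). The models were those of limma 3.58.1, run in R 4.3.3 through lmFit and eBayes, with Benjamini-Hochberg adjustment over all kept probe sets and a threshold of 0.05. One fit had age in months as a linear term and arthritis status (7 residual degrees of freedom), and another a mean for each of the 4 groups (6 residual degrees of freedom). The fits were tested on simulated data. The p-values reflect only the spread among these mice, and the number of arrays limits the precision.

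The genes and gene lists were chosen with earlier results of these data known. All member probe sets are named, as are list genes past the threshold or, where fewer than 2 pass, the 2 with the smallest p at equal age, and the 3 genes most like each member. Alternatives covered the filter, the normalization, the spread, array weights, the age term or arrays in the fit, the replicate number as a block, and leaving out each array. Python 3.11.15, numpy 2.4.6 and matplotlib 3.10.9 were used for sequences, correlations and figures.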

Additional observations from a re-analysis of the deposited data

How the results depend on the processing

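No member probe set passed in any of the 6 comparisons, and this held under the other alternatives run except 3: at equal age 2 passed with no filter (Il1rn sets 1 and 2) and 3 with array weights (these and Il1a), and among mice aged 4 months or more 0 to 1 passed with single arrays left out. With single arrays left out, 0 members passed in the other 5 comparisons. The member at 4 months or more was Il1rn set 2, in a fit with 1 old arthritic mouse, and is not read as a call. The stricter filter tested 9 of the 11.

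Counts over all probe sets moved more. At equal age 538 probe sets passed, and with no filter 5475, with the stricter filter 198, after quantile normalization 177, with arrays centred on their medians 274, with array weights 4857, with the replicate block 29 and with no age term 2517. Among mice aged 4 months or more 137 passed, and under the same alternatives in that order 3997, 5, 70, 66, 1454 and 0 with the block. A spread with a trend gave 11 there, and only the groups compared gave 0. In old mice 17 passed, and 2280 with no filter, 3 with the stricter one, 32 after quantile normalization, 7 with a trend, 11 with array weights, 0 with the block and 0 with only the groups compared. In young mice 74 passed, and 3186 with no filter, 2 with the stricter one, 34 after quantile normalization, 6 with a trend, 533 with array weights, 0 with the block and 17 with only the groups compared. The causes were not tested. With single arrays left out the counts ran over 0 to 859 at equal age, 2 to 1752 at 4 months or more, 0 to 1522 among the old, 0 to 73 among the young, 0 to 55 for the difference and 0 to 2 for age.

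Same replicate numbers did not pair the mice (12 pairs, r of their deviations from -0.53 to 0.36), and with the block 0 member probe sets passed in each comparison. The Ccl2 call at equal age was lost with the block (adjusted p = 0.0609), and the Lcn2 call at 4 months or more was lost with the block and with 5 other alternatives to the fit, the stricter filter, both normalizations, the trend and only the groups compared (adjusted p up to 0.122). The 32 named list genes were picked by a call or by the smallest p at equal age, so they gain calls readily wherever more probe sets pass. Others of them gained a call at equal age: 10 with no filter (5475 of all 45037 probe sets passed), 17 with array weights (4857 of 23805) and 4 with no age term (2517 of 23805). With a trend 3 did (550 of 23805), and without young non-arthritic replicate 4 there were 4, Nlrx1, Lcn2, Itga2b and Ppbp (859 of 23744). Counts of these genes without old arthritic replicate 1 are left out, since 1 mouse then stands for its group. At equal age the 95% intervals of the 11 member probe sets reach about 0.2 to 0.4 to either side of the value. They are wider in old mice, and widest in the difference of effects, up to -0.52 to 0.79 for Il1r2.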

Other observations

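Markers of the other cells that a piece of spleen can hold, and of neighbouring tissue, gave no call for arthritis with age held equal (limma, adjusted over all kept probe sets). Of 4 kept dendritic cell markers, 1 had an unadjusted p under 0.05 (22.9% of all kept probe sets). It was Xcr1 of cross-presenting dendritic cells at -0.47 (SE 0.15, adjusted p = 0.109), with Itgax at 0.11 (SE 0.15, adjusted p = 0.674). No marker of B, T or NK cells or of erythroid cells reached an unadjusted p under 0.05. Among B cell markers Cd79a differed by 0.16 (SE 0.13, adjusted p = 0.492) and Cd79b by 0.07 (SE 0.09, adjusted p = 0.691). Among T cell markers Cd3e differed by 0.13 (SE 0.10, adjusted p = 0.480) and Cd8a by -0.14 (SE 0.16, adjusted p = 0.627). The NK cell markers Gzma and Ncr1 had values of -0.42 (SE 0.29, adjusted p = 0.412) and -0.36 (SE 0.29, adjusted p = 0.491). The erythroid genes Slc4a1 and Alas2 had 0.21 (SE 0.25, adjusted p = 0.638) and 0.25 (SE 0.32, adjusted p = 0.670).

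All 3 plasma cell markers had values above 0 (68.5% of all kept probe sets did), with Jchain, the joining chain of secreted antibodies, at 0.20 (SE 0.09, adjusted p = 0.216) and Xbp1, the factor of antibody secretion, at 0.27 (SE 0.13, adjusted p = 0.237). Of these 3, Jchain alone had an unadjusted p under 0.05 (22.9% of all). Of the markers of tissue beside the spleen, the pancreas genes Gp2 and Cela1 differed by -0.71 (SE 0.24, adjusted p = 0.124) and 0.14 (SE 0.11, adjusted p = 0.480). Gp2 had an unadjusted p of 0.0141 in limma. Adipoq of fat differed by 0.55 (SE 0.72, adjusted p = 0.675) and Upk3b of mesothelium by -0.08 (SE 0.25, adjusted p = 0.873). The standard error of Adipoq was the widest of these 4.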
